A study of Saccharomyces cerevisiae with 6 samples.

Results

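The thiamine genes of budding yeast (Saccharomyces cerevisiae) described here were 10 genes of vitamin B1 synthesis, uptake and regulation: THI2, THI3, THI4, THI5, THI6, THI7, THI11, THI12, THI13 and THI20. They were picked out by gene symbol in the array's annotation, and all 10 were found, with 1 spot each, among the 5379 named genes of the array. Strain S288C was grown in YPD, a rich glucose medium, at 25 °C. At an optical density of 1, methanol was added to 5% and the cells were exposed for 2 h. The control cultures grew for the same 2 h with no addition. Poly(A) RNA of the treated culture carried Cy5 and that of the control Cy3, always in this orientation, so an effect of the dye on a single gene cannot be told apart from one of methanol. Per the labels there were 3 arrays from independent biological samples, replicates 1 to 3, each scanned at a high and a low laser power.

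Thiamine diphosphate is the coenzyme of pyruvate decarboxylase, transketolase and the pyruvate and oxoglutarate dehydrogenase complexes. Yeast builds thiamine from a pyrimidine and a thiazole moiety that are made separately and then joined, and it also takes the vitamin up from the medium. In this organism the genes for synthesis and uptake are known to be repressed when thiamine is plentiful and induced when it is scarce, through the regulators Thi2, Thi3 and Pdc2.

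Values are log2 ratios, likely of methanol over untreated. Neither log base nor direction is stated with the deposited values. The base was taken as 2, and the direction rests on the treated sample being the Cy5 channel, so every sign would turn if the authors had divided the other way. Every array was shifted so that its median gene sat at 0, and values are given as mean ± SD over arrays. As the files hold ratios only, the level of a transcript in either culture was not known, and neither levels nor signal over background were compared. A gene was called at an adjusted p under 0.05 from a limma fit over the 4336 genes with a value on all 3 arrays.

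The genes of the pyrimidine and the thiazole moiety stood highest, between 3.17-fold and 3.63-fold. The plasma membrane transporter gene and an activator gene came next. Of the genes of the later steps, THI20 stood at 1.28-fold and THI6 had a log2 ratio close to 0, and that of the regulator THI3 was below 0. Of 7 thiamine genes valued on all 3 arrays, 5 were called higher, 1 was called lower and THI6 did not pass the test. Of the 5 called higher, 3 were near-identical copies. Over all genes tested, 26% were called higher and 24.2% lower, or 50.3% in either direction. The median log2 ratio of the 7 genes was 0.86, and that of all 4336 genes was −0.01. With the 3 copies averaged to 1 value, a choice made after the values were seen, the median was 0.36 over 5 values. The remaining 3 genes, THI2, THI4 and THI5, had no value on replicate 2 and are given with their 2 values.

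**Figure D1:**
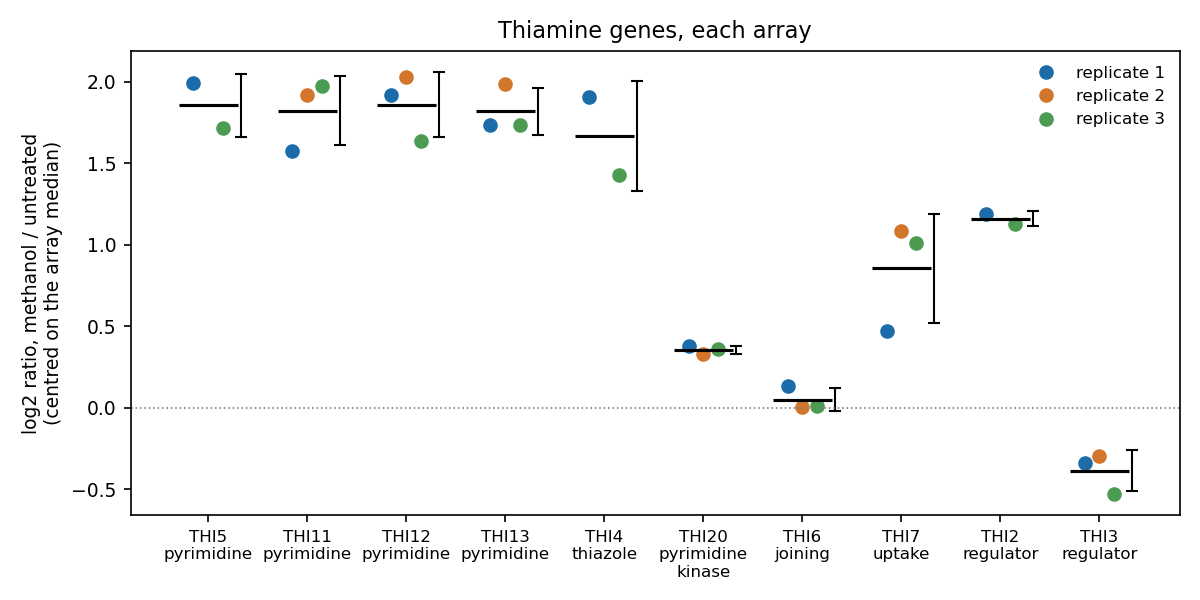
Log2 ratio of methanol over untreated (vertical axis, centred on the array median) for each thiamine gene (horizontal axis, with its step). Points are arrays, the line is their mean and the bar beside it the SD over 3 arrays, or over 2 for THI5, THI4 and THI2. The THI5 copies and THI4 lie between 1.43 and 2.03, and THI3 lies below 0 on every array.

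THI5 (YFL058W), THI11 (YJR156C), THI12 (YNL332W) and THI13 (YDL244W) encode the enzyme that makes the pyrimidine moiety, hydroxymethylpyrimidine phosphate, from histidine and pyridoxal phosphate. The 4 genes are near-identical in sequence, so each spot may have bound transcripts of every copy, and they count as 1 measurement of the family rather than as independent genes. THI11 had log2 ratios of 1.58, 1.92 and 1.97 on replicates 1, 2 and 3 (1.82 ± 0.21, n = 3, or 3.54-fold, limma adjusted p = 9.19e-05). THI12 had 1.92, 2.03 and 1.64 (1.86 ± 0.20, n = 3, or 3.63-fold, limma adjusted p = 8.49e-05). THI13 had 1.73, 1.99 and 1.73 (1.82 ± 0.15, n = 3, or 3.53-fold, limma adjusted p = 7.9e-05). All 3 rose, and every array of every copy lay far above 0. THI5 had 1.99 on replicate 1 and 1.72 on replicate 3, a mean of 1.86 or 3.62-fold. Over these 2 arrays THI11, THI12 and THI13 had means of 1.78, 1.78 and 1.73, so THI5 had the highest mean there. On replicate 3 alone, THI11 and THI13 lay above THI5.

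Within an array the copies spanned 0.41 on replicate 1 (4 copies), 0.11 on replicate 2 (3 copies) and 0.33 on replicate 3 (4 copies). The SD between copies on 1 array ran from 0.05 to 0.19, and the SD of a tested copy between arrays from 0.15 to 0.21. The order of the copies changed from array to array. THI11 was the lowest copy on replicate 1 and the highest on replicate 3. Among all 4336 genes tested, THI12, THI11 and THI13 took ranks 81, 88 and 89 from the highest ratio.

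THI4 (YGR144W) encodes the thiazole synthase, a protein that gives up a sulfur atom of its own and works only once. Its log2 ratio was 1.90 on replicate 1 and 1.43 on replicate 3, with a mean of 1.67 or 3.17-fold. In the fit of genes with values on at least 2 arrays, THI4 was called higher (95% interval 1.20 to 2.13, limma adjusted p = 0.00186), as was THI5 (1.44 to 2.27, limma adjusted p = 0.000973). In that fit, of 5208 genes, 8 of the 10 thiamine genes were called higher and 1 lower, against 23.3% and 21.5% of all genes. Those 8 include the near-identical copies THI5, THI11, THI12 and THI13, which count as 1 measurement, so the shares are not directly comparable. The mean of the pyrimidine copies was 0.10 below THI4 on replicate 1 and 0.34 above it on replicate 3. The order of the copies' mean and THI4 thus differed between arrays, as did that of THI11 and THI4 and of THI13 and THI4. THI5 (by 0.09 and 0.29) and THI12 (by 0.01 and 0.21) were above THI4 on replicates 1 and 3. With 2 arrays, an exact sign-flip test allows no p below 0.5.

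The genes of the later enzymes showed small ratios. THI20 (YOL055C) encodes the kinase that phosphorylates the pyrimidine moiety, in a protein with an added thiaminase domain. It had log2 ratios of 0.38, 0.33 and 0.36 (0.36 ± 0.03, n = 3, or 1.28-fold, 95% interval 0.08 to 0.64, limma adjusted p = 0.0403). The 3 arrays lay close together, but the call was lost without any single replicate (log2 ratios of 0.34 to 0.37, adjusted p from 0.0581 to 0.177) and without centring (0.0602). The mean of the copies exceeded THI20 by 1.42, 1.65 and 1.41 on replicates 1, 2 and 3, a mean difference of 1.49 ± 0.14. That difference was positive on all 3 arrays, and its two-sided exact sign-flip p of 0.25 is the smallest that 3 arrays can give.

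THI6 (YPL214C) encodes the enzyme that joins the thiazole and pyrimidine moieties to thiamine phosphate and also salvages the thiazole. Its log2 ratios were 0.13, 0.01 and 0.01 (0.05 ± 0.07, n = 3), and it was not called (95% interval −0.23 to 0.33, limma adjusted p = 0.749). That interval leaves room for a ratio between 0.85-fold and 1.26-fold. The sign of THI6 depended on laser power. At high power the deposited log2 ratios were −0.11, −0.21 and −0.12, and at low power they were 0.28, 0.13 and 0.10, so the mean near 0 averaged scans of opposite sign.

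THI7 (YLR237W) encodes the plasma membrane transporter that imports thiamine. It rose, with log2 ratios of 0.47, 1.09 and 1.01 (0.86 ± 0.33, n = 3, or 1.81-fold, 95% interval 0.49 to 1.22, limma adjusted p = 0.00349). Replicate 1 was the low array, in its high-power scan (0.40) and its low-power scan (0.45) alike, and without it the log2 ratio was 1.05.

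The regulators on the list stood on opposite sides of 0. THI2 (YBR240C) encodes a zinc cluster activator of the thiamine genes, with log2 ratios of 1.19 on replicate 1 and 1.13 on replicate 3 (mean 1.16, 2.23-fold). It was called higher in the fit of genes with at least 2 arrays (95% interval 0.77 to 1.55, limma adjusted p = 0.00328). THI3 (YDL080C) encodes a protein related to the decarboxylases that binds thiamine diphosphate and regulates the same genes. It fell, with log2 ratios of −0.34, −0.29 and −0.53 (−0.39 ± 0.13, n = 3, or 0.765 times the untreated level, limma adjusted p = 0.0355). All 3 arrays were below 0, but the call was lost without replicate 1 (adjusted p = 0.135), without replicate 3 (0.196) and with the low-power scans alone (0.0749).

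From the highest to the lowest mean the order was THI12, THI5, THI11, THI13, THI4, THI2, THI7, THI20, THI6 and THI3. The means of THI5, THI4 and THI2 are over replicates 1 and 3 only, and the other means are over all 3 arrays. On both arrays that THI12 and THI5 shared, THI12 minus THI5 was −0.08, so their places rest on the array that THI5 lacked. The ranges over arrays of neighbours in this order overlapped from THI12 down to THI4 and did not overlap at any step below THI4. From THI4 to THI3, the upper gene of each neighbouring pair was above the lower one on every array that measured both.

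High ratios went with a lack of low-power values. THI2, THI4, THI5, THI11, THI12 and THI13, the 6 genes with the highest ratios, had values in high-power scans only. THI3, THI6 and THI20 had a value in all 6 scans and THI7 in 5 of them. Among all genes tested, the 1035 with values in the high-power scans alone on all 3 arrays had a median log2 ratio of 0.01, and 28.4% of them were called higher. The 1596 genes with a value in all 6 scans had a median of −0.05, and 22.7% were called higher. Of the 1035 genes, 35 or 3.38% lay above THI13, the copies THI11 and THI12 among them. The same share was 1.32% of the genes with a value in all 6 scans and 2.03% of all genes tested. The part of scan power in the ratios of the 6 highest thiamine genes was not tested, since they had no low-power value. The 288 spots without a named gene but with values on all 3 arrays had a median log2 ratio of 0.43 after the same centring. That of all genes tested was −0.01, and THI20 stood at 0.36. Why the spots without a gene stood above 0 was not tested.

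For genes with both scans, high and low power were compared within each array, after the medians of the scans were set equal. For THI6 high power lay 0.33, 0.28 and 0.19 below low power, a mean difference of −0.27 ± 0.07 (n = 3) that was not called (limma adjusted p = 0.0576). THI3 differed by −0.17 ± 0.13 (limma adjusted p = 0.276) and THI20 by 0.01 ± 0.24 (limma adjusted p = 0.949). By limma, 0 of these 3 genes were called after adjustment and 2, THI6 and THI3, had an unadjusted p under 0.05 (0.0021 and 0.0452). Of the 1595 genes so tested, 3.01% were called after adjustment and 17.5% had an unadjusted p under 0.05.

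**Figure D2:**
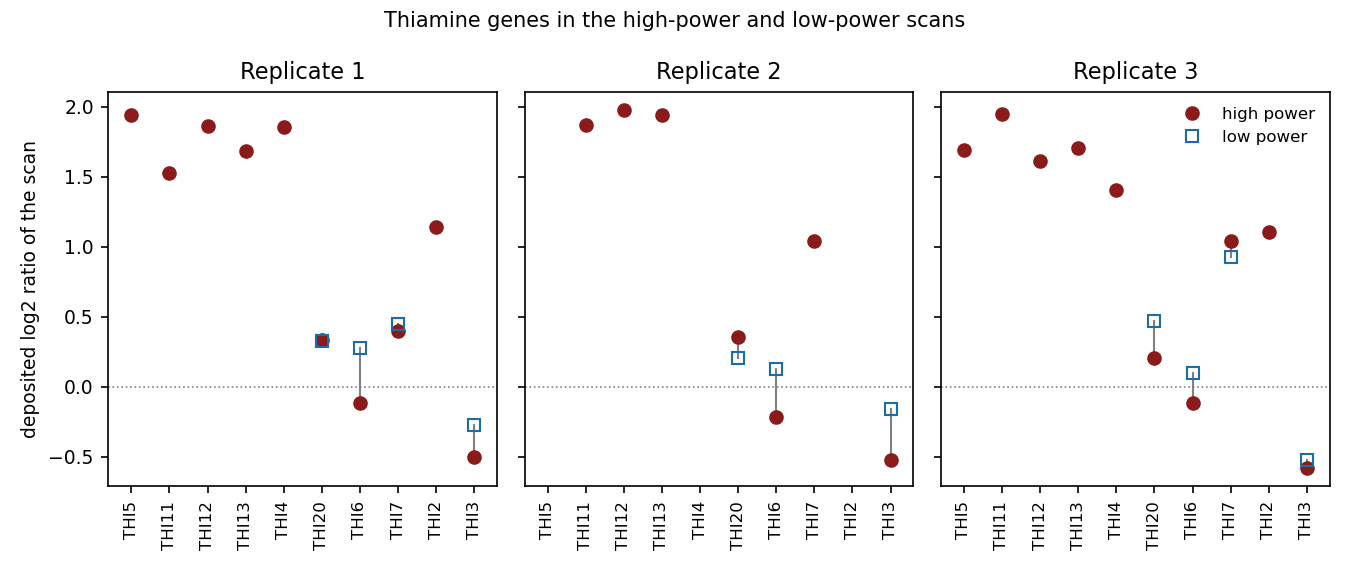
Deposited log2 ratio (vertical axis, not centred) of each thiamine gene (horizontal axis) in the high-power scan (filled circles) and the low-power scan (open squares) of each replicate, with a line joining scans of the same spot. The genes above 1.1 have circles only, and THI6 has its circle below 0 and its square above 0 on all 3 arrays.

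Other genes of thiamine uptake, use and control gave a mixed picture. Of 10 such genes 7 were tested, and 4 rose and 2 fell, with a median log2 ratio of 0.58, against 26% and 24.2% of all genes. THI74, which encodes a mitochondrial transporter repressed by thiamine, rose by 1.09 ± 0.23 (limma adjusted p = 0.000736). THI73, the gene of a putative permease, rose by 0.76 ± 0.29 (0.00452 by the same measure), and THI72, a relative of the transporter gene THI7, by 0.61 ± 0.16 (0.00657). PET18, of unknown function, rose by 0.53 ± 0.34 (limma adjusted p = 0.0263). Its log2 ratio was 0.51 without replicate 1 and 0.37 without replicate 2, and its call was lost in both cases (adjusted p = 0.143 and 0.0978), with the high-power scans alone (0.0571) and with high power first (0.0587). TPC1, the gene of the mitochondrial thiamine diphosphate carrier, had 0.35, 1.26 and 0.13 on replicates 1, 2 and 3 and did not pass (limma adjusted p = 0.0565); replicate 2 stood apart, and without it the log2 ratio was 0.24.

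The genes that fell were PHO3 and PDC2. PHO3, whose acid phosphatase frees thiamine from its phosphates outside the cell, had log2 ratios of −0.89, −0.46 and −1.11 (−0.82 ± 0.33, limma adjusted p = 0.00416). Without replicate 1 its log2 ratio was −0.79 and its call was lost (adjusted p = 0.0508). PHO3 belongs to a family of similar phosphatase genes whose signals may be shared. PDC2 encodes the activator of thiamine and pyruvate decarboxylase genes and had −0.62, −1.0 and −0.77 (−0.80 ± 0.19, limma adjusted p = 0.00238). Both genes were below 0 on all 3 arrays. PHO3 thus differed in sign from THI4, THI5 and THI7, although all are known as genes repressed by thiamine.

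The other 3 had values on replicates 1 and 3 only. THI80, the gene of the kinase that makes thiamine diphosphate, had −0.92 and −1.25, and was called lower in the fit with at least 2 arrays (limma adjusted p = 0.00538). THI21, a close relative of THI20, had 0.64 and 0.59 and was called higher there (0.0252). THI22, of the same family, had 2.02 and −0.05, and was not called (0.139). Along the route to the coenzyme, the ratios thus ran from 1.67 to 1.86 for the genes of both moieties, through 0.36 and 0.05 for THI20 and THI6, to −1.08 for THI80. THI21 and THI22, the relatives of THI20, stood at 0.61 and 0.98. The values of THI4, THI5, THI21, THI22 and THI80 rest on 2 arrays.

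Pyridoxal phosphate, the active form of vitamin B6, is consumed by the THI5 enzymes. Of 10 pyridoxine genes 9 had a spot and 7 were tested, of which 4 rose and 1 fell, against 26% and 24.2% of all genes. SNZ1, the stationary-phase gene of the synthase, rose by 1.91 ± 0.11 (limma adjusted p = 6.56e-05), while SNZ2 (0.57 ± 0.06, 0.00635) and SNZ3 (0.79 ± 0.34, 0.00501), which lie beside THI12 and THI5, rose less. SNO2, which encodes the glutaminase partner, rose by 0.57 ± 0.14 (0.00818), and SNO1 had 1.68 and 0.90 on replicates 1 and 3. BUD17, a putative pyridoxal kinase gene, fell by 0.53 ± 0.43 (0.0403), and BUD16, the pyridoxal kinase gene, had −1.04 and −0.72. The log2 ratio of BUD17 was −0.52 without replicate 1 and −0.31 without replicate 2, and its call was lost in both cases (adjusted p = 0.17 and 0.155) and in the fit with at least 2 arrays (0.0543). Without replicate 1 the calls of SNZ2 (0.58, adjusted p = 0.0562) and SNO2 (0.51, adjusted p = 0.081) were lost as well. PDX3, the oxidase gene (0.38 ± 0.23), and TPN1, the pyridoxine transporter gene (−0.17 ± 0.34), did not pass the test, and SNO3 had no value.

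Of 11 tested genes of enzymes that carry thiamine diphosphate, 6 rose, 2 fell and 3 did not pass, with a median log2 ratio of 0.52. Of all genes, 26% rose and 24.2% fell. The minor transketolase gene TKL2 had 2.66, 2.93 and 2.01 (2.54 ± 0.47, limma adjusted p = 8.8e-05), while the major gene TKL1 had −0.82, −0.83 and −0.73 (−0.79 ± 0.06, limma adjusted p = 0.00165). The minor pyruvate decarboxylase gene PDC6 rose by 1.56 ± 0.52 (limma adjusted p = 0.000747) and PDC5 by 0.67 ± 0.20 (limma adjusted p = 0.005), and the major gene PDC1 stood at −0.14 ± 0.09 (limma adjusted p = 0.355). Without replicate 1 the log2 ratio of PDC5 was 0.56 and its call was lost (adjusted p = 0.061). The PDC genes are similar in sequence, and PDC1 and PDC5 lacked a high-power value on replicates 1 and 3.

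Among the dehydrogenases, PDA1, the alpha subunit gene of pyruvate dehydrogenase, rose by 0.78 ± 0.46 (limma adjusted p = 0.00981), and PDB1, its beta subunit gene, stood at 0.23 ± 0.28 (limma adjusted p = 0.231). KGD1, of the oxoglutarate dehydrogenase complex, rose by 0.52 ± 0.25 (limma adjusted p = 0.0175). Its log2 ratio was 0.57 without replicate 1 and 0.38 without replicate 3, and its call was lost in both cases (adjusted p = 0.0835 and 0.131). PXP1, a peroxisomal protein gene, rose by 0.92 ± 0.37 (limma adjusted p = 0.00314). ARO10, a phenylpyruvate decarboxylase gene, fell by 1.34 ± 0.23 (limma adjusted p = 0.00032). ILV2, the acetolactate synthase gene, was at 0.02 ± 0.17 (limma adjusted p = 0.923).

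**Figure D3:**
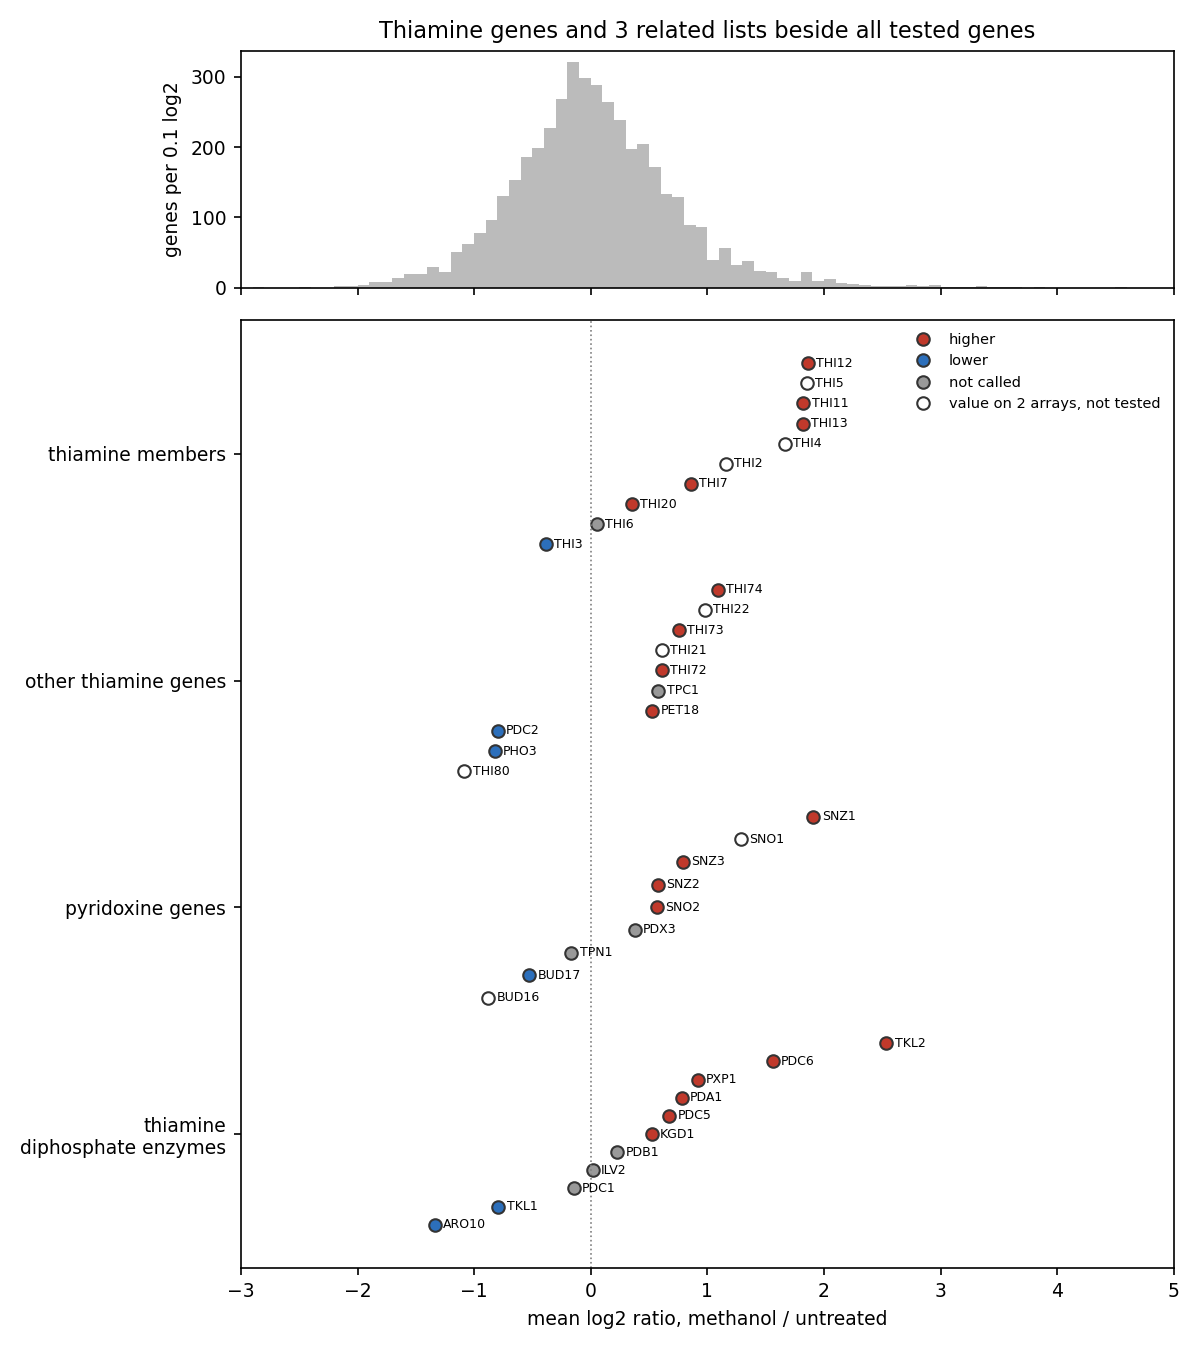
Mean log2 ratio (horizontal axis) of the thiamine genes and of 3 related lists, below a histogram of all 4336 genes tested. Points are genes, coloured by whether limma called them higher or lower; open points had a value on 2 arrays only. The THI5 copies lie in the upper tail of the histogram, and each list has genes on both sides of 0.

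The thiamine genes differ in where they lie. In the gene order of the R64 reference table, with genes of small stable RNAs such as tRNA left out, THI11 and THI13 were the fifth gene from an end of chromosomes X and IV, THI12 the sixth on XIV and THI5 the tenth on VI. The nearest of the other members to an end was THI2, at place 64 on chromosome II. The 3 nearest genes on each side of the 4 copies were 24, of which 20 were tested: 16 rose, 2 fell and the median log2 ratio was 0.86. Around the other 6 members 36 genes gave 25 tested, of which 7 rose and 8 fell, with a median of 0.08. Thus 80% rose and 10% fell around the copies, and 28% and 32% around the others, against 26% and 24.2% of all genes. The split between the copies and the other members was made after the values were seen and carries no test.

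Genes near chromosome ends as a whole had higher ratios. Of 212 tested genes within 10 genes of an end, other than thiamine genes, 50% rose and 11.8% fell, with a median of 0.44, against 26% and 24.2% of all genes. Among the 212 are neighbours of the copies already counted above, so the sets overlap. The grouping by chromosome end was chosen after the values were seen and carries no test. Many such genes belong to near-identical families, so their spots may share signal, and the part of this in the ratios was not tested.

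The neighbours of the copies came from the same few families. An aryl-alcohol dehydrogenase gene lay next to each copy: AAD6 (1.24 ± 0.23) beside THI5, AAD10 (1.64 ± 0.05) beside THI11, AAD14 (0.78 ± 0.26) beside THI12 and AAD4 (1.00 ± 0.60) beside THI13, and all 4 rose. On the other side THI5 and THI12 adjoined pyridoxine genes, SNZ3, and SNZ2 with SNO2, followed by the cyanamide hydratase genes DDI3 (0.90 on 2 arrays) and DDI2 (0.84 ± 0.08). THI11 and THI13 instead adjoined HXT16 (1.99 ± 0.30) and HXT15 (1.88 ± 0.15), which encode sugar transporters. Next to these lay SOR1 (0.94 ± 0.48) and SOR2 (0.88 ± 0.20), sorbitol dehydrogenase genes, and MPH3 (0.88 ± 0.44) and MPH2 (0.80 ± 0.13), maltose permease genes, and all 6 of these genes rose.

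The remaining called neighbours of the copies were AQY3, an aquaglyceroporin gene (2.78 ± 0.23), and PGU1, a pectinase gene (1.02 ± 0.12), which rose, and RPD3, a histone deacetylase gene (−0.54 ± 0.27), and YDL241W (−0.55 ± 0.34), which fell. RPD3 and YDL241W lay on the side of the copy away from the chromosome end. Around the other members, the called genes were ERT1, VVS1 and ALG7 (higher) and YBR238C (lower) near THI2, MRK1 (higher) and the ribosomal protein genes RPS16B and RPL13A (lower) near THI3, and SKN1 and ECL1 (higher) and BTN2 (lower) near THI4. CBP3 and NIP7 were lower near THI6, the stress gene DDR2 was higher and YOL057W and GPM3 were lower near THI20, and the tested neighbours of THI7, EST1 and VPS34, were not called (limma adjusted p = 0.0648 and 0.724).

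**Figure D4:**
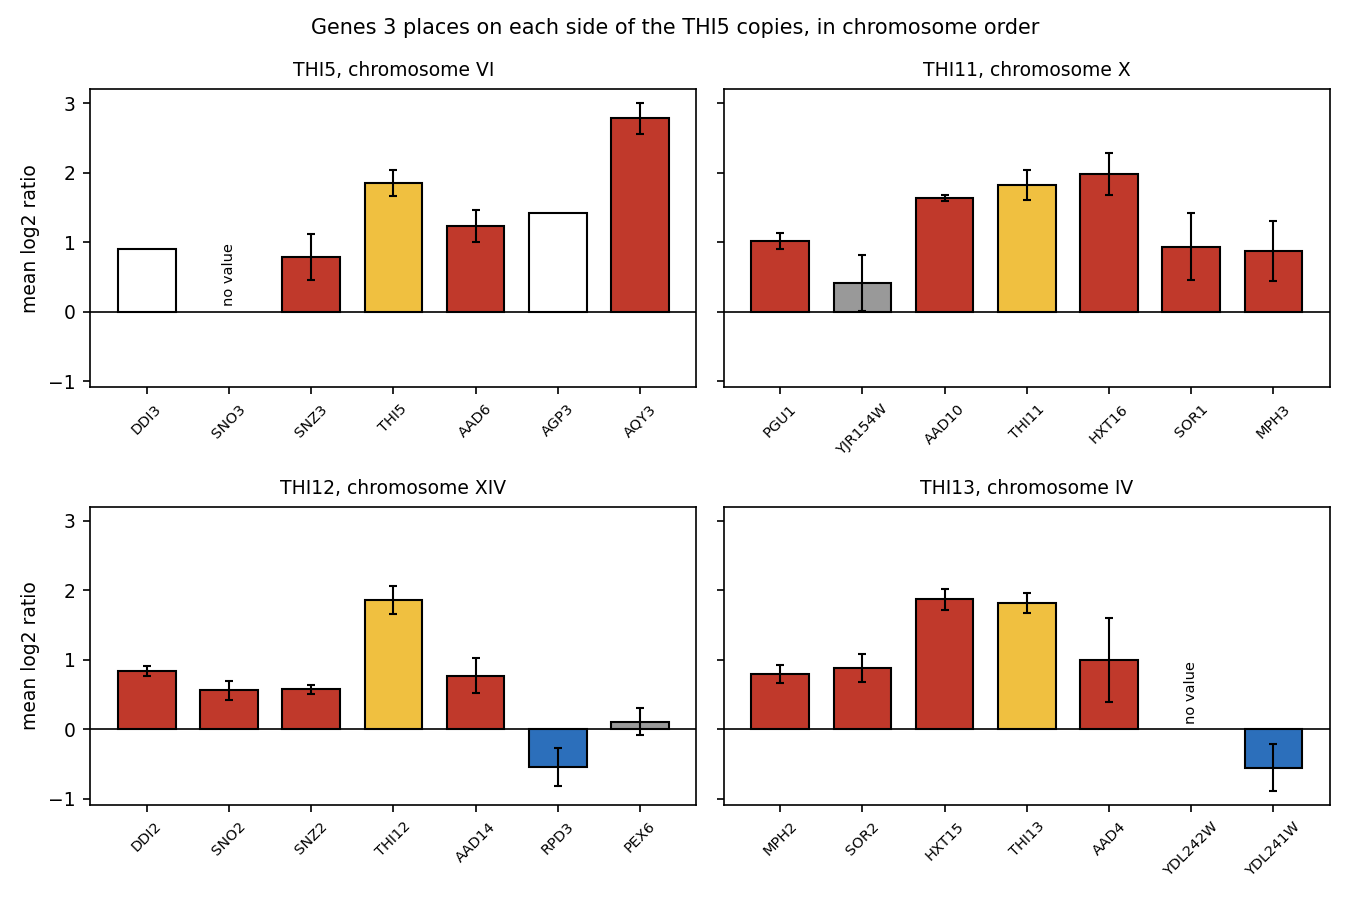
Mean log2 ratio (vertical axis, bars, with SD over 3 arrays as error bars, or over 2 for THI5) of the THI5 copies (yellow) and of the 3 genes on each side in chromosome order (horizontal axis). Red bars were called higher, blue lower, grey neither, and white bars without an error bar had values on 2 arrays and were not tested. Every valued neighbour of THI5 and THI11 is above 0, and RPD3 and YDL241W are below it.

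Genes whose values on the 3 arrays were nearest to the mean of the THI5 copies (1.80, 1.98 and 1.77) were sought among 4329 other genes by Euclidean distance, over 3 arrays. XBP1, a stress-induced repressor gene, was nearest, with 1.88, 1.92 and 1.73 (distance 0.10). SNZ1 followed at 0.12, the catalase gene CTT1 at 0.13, PMP3, a small membrane protein gene, at 0.13 and YGP1, a secreted glycoprotein gene, at 0.14. The array means of these 5 genes lay between 1.79 and 1.91, so the measure mostly picked genes of equal ratio.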

How the data were processed

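The authors deposited log2 ratios (base and direction unstated, read as Cy5 over Cy3), 1 column per scan; per the labels, spots with flag 0 were LOWESS-normalized. The authors' merged values were not used here. Of 6912 spots, 5446 had 1 gene in the platform annotation, 0 several and 1466 none; all 5379 symbols matched the R64 reference table, used for names and gene order only. Valued spots per scan ranged from 1881 to 5842, and scan medians from −0.03 to 0.01. Scans were averaged per spot, spots per gene, and arrays centred on the median gene. Testing of genes with 3 arrays used limma 3.58.1 and R 4.3.3 (intercept, eBayes, Benjamini-Hochberg over all genes; tested on simulated data). Array number, 3, limits the precision. Named genes were all members of the 4 lists, called genes among the 3 neighbours on each side, and the 5 nearest patterns. The members and lists were chosen with earlier results of these data known. Alternatives changed scans, centring, scaling, missing values, weights and replicates. Promoter motifs, protein identities and sequences were not analysed here.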

Additional observations from a re-analysis of the deposited data

How the results depend on the processing

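THI11, THI12 and THI13 kept their call in the 10 alternatives that measured them, with log2 ratios of 1.75 to 1.95, 1.78 to 1.97 and 1.73 to 1.86, and THI7 kept its call in 10 (0.74 to 1.05). With the low-power scans alone, 1710 genes and 3 thiamine genes could be tested, and 1 of these was called higher and 0 lower; over all genes 431 were higher and 485 lower. In that setting the other thiamine genes gave 0 higher and 1 lower, the pyridoxine genes 0 and 0, and the thiamine diphosphate enzymes 2 and 2. With genes valued in all 6 scans (1596), 428 were higher and 517 lower. Of the thiamine genes 1 was higher and 1 lower, and of the other thiamine genes 0 and 1. Pyridoxine genes gave 0 and 0 there, and the thiamine diphosphate enzymes 1 higher and 2 lower. Fewer genes are tested by construction. With at least 2 arrays, 8 thiamine genes were higher, the 4 near-identical copies among them, and 1 was lower. Leaving out each replicate in turn gave 672 to 1218 genes higher and 575 to 1120 lower, the lowest counts without replicate 1. Thiamine genes called lower ranged from 0 to 1, other thiamine genes called lower from 1 to 3, and pyridoxine genes from 2 to 5 higher and from 0 to 1 lower. THI6 turned to −0.083 with the high-power scans alone and to −0.088 with high power first. ILV2 turned to −0.024 without centring and −0.034 with array weights, and ran from −0.059 (without replicate 2) to 0.11 when single replicates were left out. TPC1 and PDX3 passed the test after arrays were scaled (adjusted p = 0.0361 and 0.0462), TPC1 without replicate 3 (0.0436), and PDX3 also with the high-power scans alone (0.03). The cause of these changes was not tested. Signal over background was unknown, and the promoter alternative was not run. Each ratio already sets a treated against a control culture on 1 array. The series has 1 group, so no comparison between groups was made.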
